A study of Mus musculus with 60 samples.

Results

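Ribosomes are made in the nucleolus, where RNA polymerase I copies the ribosomal DNA into a long precursor that is cut, chemically modified and packed with ribosomal proteins. Small nucleolar RNAs guide much of that modification: C/D box RNAs direct methylation of ribose and H/ACA box RNAs direct the change of uridine to pseudouridine, each inside a particle with its own core proteins (a snoRNP). The 32 genes described here encode proteins of this route: 5 of C/D box particles, 5 of H/ACA box particles, 4 nucleolar chaperones and helicases, 4 of RNA polymerase I and its initiation factors, 8 of the small subunit processome and 6 of large subunit assembly. They were chosen by symbol, and all 32 were found among the 55290 named genes of the poly-A tables.

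Whole organs (brain, heart, kidney, liver, spleen) were taken from male mice aged 4 months, 3 labelled Ftsj1_DF (Ftsj1-deficient) and 3 wildtype, with no special treatment. Ftsj1 encodes a methyltransferase that acts on ribose in tRNA; the sources used here do not give the kind of allele behind the deficiency. Per the labels, 4 of the 6 mice were brothers and the other 2 were brothers, both litters held both genotypes, and 1 batch label covers the whole series. Each organ gave 6 poly-A libraries and 6 rRNA-depleted libraries, and all comparisons below are Ftsj1-deficient against wildtype within 1 organ, n = 3 mice against 3.

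Only the authors' DESeq2 results were available here, with 1 mean level per gene over the 6 libraries of an organ, so no value per mouse can be shown and the spread between mice enters through the standard error alone. A gene is said to have risen or fallen where DESeq2's adjusted p in the authors' deposited table was under 0.05. As a share of wildtype, Ftsj1 itself stood in the authors' deposited tables at 15.4% (brain), 9.75% (heart), 14.0% (kidney), 8.79% (liver) and 8.98% (spleen). Ftsj1 was thus low in the group labelled deficient in every organ, which fixes the sign of the differences. The summed level of each organ's 6 marker genes was highest in that organ's own table. The spleen table also held exocrine pancreas markers, at a summed level of 5019080 against 1011130 for the spleen markers, and their differences between genotypes had wide errors (Cela1 0.32 ± 2.07, Amy2a2 0.09 ± 2.48 in the authors' deposited table). The summed level of a poly-A table was lowest in spleen and highest in kidney, and depth per library is unknown. In whole organs, fewer cells of a type and less RNA per cell cannot be told apart.

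Several of the genes carry snoRNAs in their introns, so the same transcript yields a messenger RNA for a nucleolar protein and a guide RNA that such proteins bind. GENCODE M21 (GRCm38) places 16 snoRNAs inside 5 of the 32 genes: 5 in Nop56, 4 in Nop58, 3 in Ncl, 3 in Wdr43 and 1 in Dkc1. The sequences below show 1 guide RNA for each of 4 hosts, with the C box and the D box, the short motifs bound by the C/D box proteins, in capitals, and then Snora75, an H/ACA box RNA of Ncl, with its terminal ACA in capitals. All are written 5′ to 3′ as DNA letters, from GRCm38 transcripts.
Snord110 (intron of Nop56, chr2:130275506-130275573, plus strand): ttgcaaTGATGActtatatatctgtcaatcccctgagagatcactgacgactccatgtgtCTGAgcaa
Snord11 (intron of Nop58, chr1:59704790-59704873, plus strand): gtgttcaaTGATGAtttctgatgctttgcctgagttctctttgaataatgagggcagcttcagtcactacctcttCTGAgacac
Snord82 (intron of Ncl, chr1:86356261-86356330, minus strand): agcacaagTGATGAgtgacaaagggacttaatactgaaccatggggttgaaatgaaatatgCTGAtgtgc
Snord92 (intron of Wdr43, chr17:71631281-71631365, plus strand): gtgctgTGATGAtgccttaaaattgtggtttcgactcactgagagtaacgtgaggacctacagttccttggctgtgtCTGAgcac
Snora75 (Ncl, chr1:86351169-86351301, minus strand): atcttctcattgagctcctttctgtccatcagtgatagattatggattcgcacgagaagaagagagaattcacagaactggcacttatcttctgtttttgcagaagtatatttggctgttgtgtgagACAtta

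None of the 32 genes rose or fell in any of the 5 organs. By DESeq2's adjusted p in the authors' deposited tables, 0 of 32 were called in brain, heart, kidney, liver and spleen, where 0.0607%, 0.541%, 0.987%, 2.29% and 0.0741% of all tested genes were called. At an unadjusted p under 0.05, DESeq2 gave 0 members in brain, 1 in heart (Nhp2, higher), 0 in kidney, 7 in liver (all higher) and 1 in spleen (Utp20, lower), where 2.34%, 5.71%, 3.99%, 6.63% and 4.7% of all genes reached that value.

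The data bound how large a difference could be. Over the 160 values (32 genes in 5 organs), the log2 fold change lay between −0.29 and 0.59 in the authors' deposited tables. All 160 of the 95% intervals lay inside a range from 2-fold lower to 2-fold higher, and 139 lay inside 1.5-fold either way: all 32 in both brain and kidney, 26 in liver, 25 in heart and 24 in spleen. The genes were well measured, with mean levels from 197 normalised counts (Fbl in heart) to 81899 (Ncl in kidney). Their median standard error on the log2 scale was smallest in brain (0.09) and kidney (0.10) and larger in liver (0.15), spleen (0.16) and heart (0.17).

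**Figure D1:**
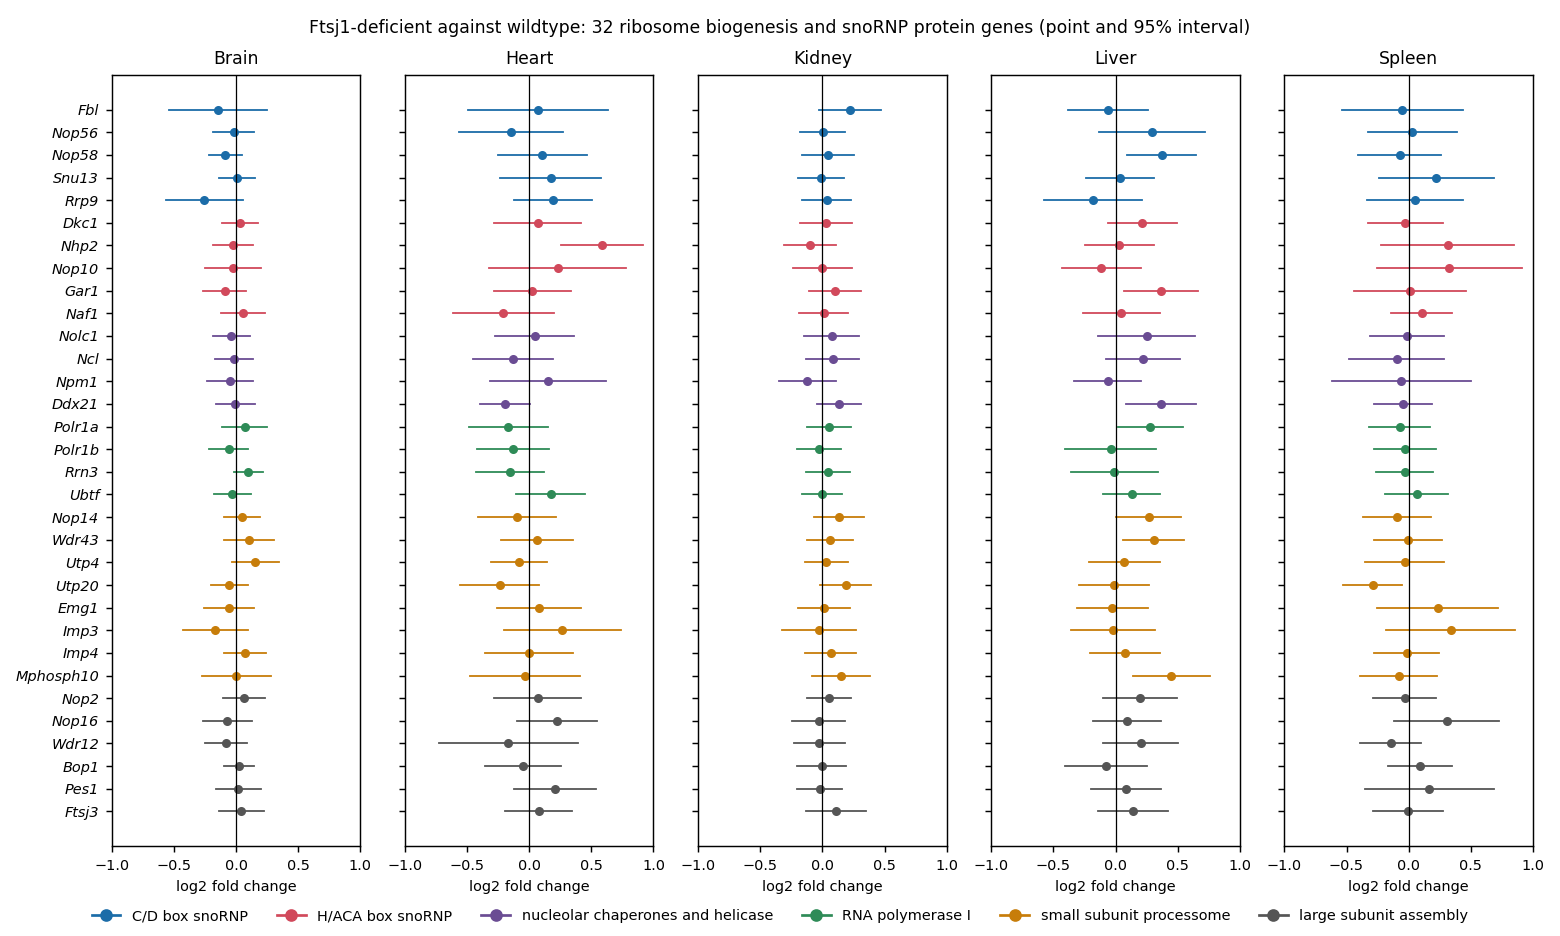
Log2 fold change of each of the 32 genes (points) with its 95% interval (lines) in each organ, Ftsj1-deficient against wildtype, coloured by role. Most intervals cross 0; the exceptions are Nhp2 in heart, 7 genes in liver and Utp20 in spleen, and none of these passed the adjusted test.

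To read the absence of calls, the smallest Wald statistic called in each organ was turned into the change each gene would have needed. From the authors' deposited tables, the median member needed a change of 1.29-fold in both brain and kidney, 1.39-fold in liver, 1.52-fold in heart and 1.57-fold in spleen. Over single genes it ran from 1.19-fold (Rrn3 in brain) to 2.36-fold (Nop10 in spleen). These are sizes that an observed difference had to reach to be called, with the standard error that gene had.

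**Figure D2:**
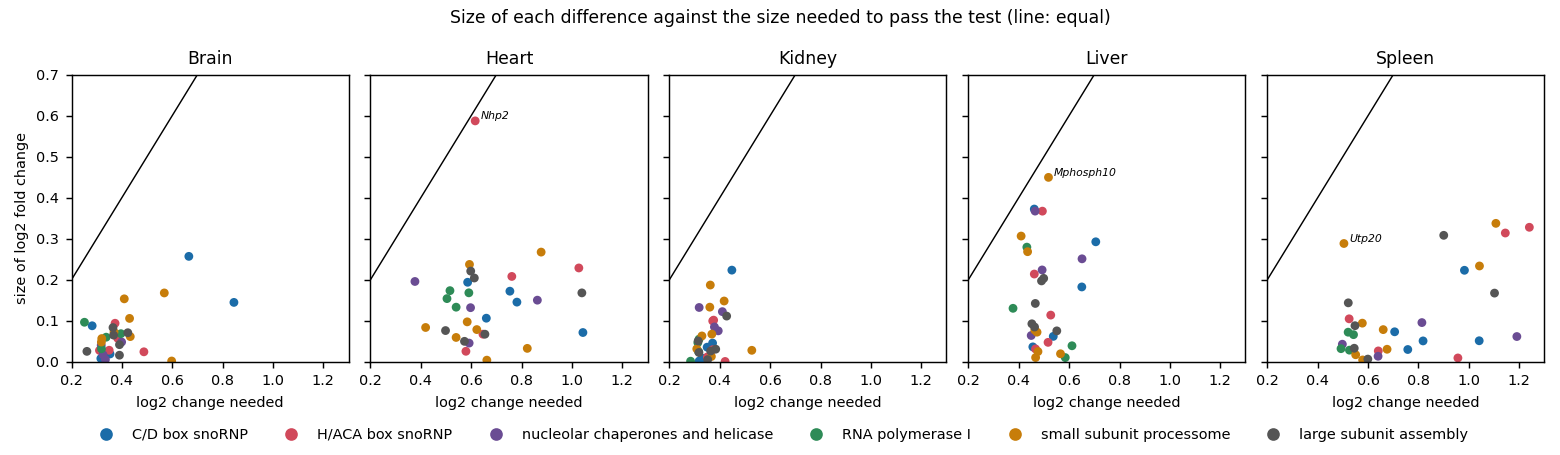
Size of the log2 fold change of each gene (vertical axis) against the size it would have needed to be called in that organ (horizontal axis, log2); the line marks equality and the gene of smallest p is named where that p is under 0.05. Every point lies below the line, and Nhp2 in heart, at 0.59 against 0.62 needed, lies nearest.

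The core proteins of C/D box particles showed no difference past the test in any organ. Fbl, fibrillarin, the methyltransferase of the particle, differed in brain by −0.14 ± 0.20 (log2 fold change ± SE), in heart by 0.07 ± 0.29, in kidney by 0.22 ± 0.13, in liver by −0.06 ± 0.16 and in spleen by −0.05 ± 0.25 in the authors' deposited tables. Nop58, a core scaffold protein, differed by −0.09 ± 0.07, 0.11 ± 0.18, 0.05 ± 0.11, 0.37 ± 0.14 and −0.07 ± 0.17 in the same order of organs in those tables. Nop58 in liver had an unadjusted p of 0.00870 and an adjusted p of 0.178 by DESeq2. Rrp9, which belongs to the U3 particle that helps cut the precursor, differed by −0.26 ± 0.16, 0.19 ± 0.16, 0.04 ± 0.10, −0.18 ± 0.20 and 0.05 ± 0.20 in the authors' deposited tables. Rrp9 thus had its lowest values in brain and liver, both with intervals that include 0. Exons of Rrp9 overlap Parp3 on the other strand, and Parp3 fell in liver (−0.42 ± 0.12, adjusted p = 0.0251 by DESeq2). The part of Parp3 in the value of Rrp9 was not tested. Of the others, Nop56, the partner scaffold of Nop58, and Snu13, which binds the kink of the guide RNA, lay between −0.15 and 0.29.

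Fbl and Nop56 have close copies elsewhere in the genome, so their counts are less certain. At 95% identity or more over at least 200 bases, 83.3% of the Fbl transcript was matched by other genes, mainly the pseudogene Gm5812, and 39.2% of Nop56 by 4 pseudogenes. In all, 9 of the 32 genes had such a stretch, among them Imp3 (61.1%), Pes1 (60.3%), Npm1 (53.8%) and Snu13 (18.5%), and 23 had none.

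In H/ACA box particles, the value closest to the threshold in the whole set was that of Nhp2 in heart. Nhp2, a core protein of the particle and of telomerase, had a log2 fold change of 0.59 ± 0.17 there in the authors' deposited table, a 1.502-fold higher level with a 95% interval from 1.19 to 1.89. Its unadjusted p was 0.000516 and its adjusted p 0.0762 by DESeq2, so it was not called. The same gene differed by −0.03 ± 0.08 in brain, −0.10 ± 0.11 in kidney, 0.03 ± 0.14 in liver and 0.31 ± 0.27 in spleen in the authors' deposited tables. Exons of Nhp2 overlap Rmnd5b on the other strand, and Rmnd5b differed by 0.06 ± 0.19 in heart in the authors' deposited table. The sources used here do not say whether counting used the strand.

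The particle partners of Nhp2 lay closer to 0 in heart, with no test of the difference between genes. Dkc1, dyskerin, the pseudouridine synthase, differed in brain by 0.03 ± 0.07, in heart by 0.07 ± 0.18, in kidney by 0.03 ± 0.11, in liver by 0.21 ± 0.14 and in spleen by −0.03 ± 0.15 in the authors' deposited tables. Gar1, another core protein, differed by −0.09 ± 0.09, 0.03 ± 0.16, 0.10 ± 0.11, 0.37 ± 0.15 and 0.01 ± 0.23 in the same order. Gar1 in liver had an unadjusted p of 0.0156 and an adjusted p of 0.250 by DESeq2. Naf1, the assembly factor that Gar1 replaces, and Nop10, the smallest core protein, lay between −0.21 and 0.33 in the authors' deposited tables. In heart these 2 stood at −0.21 ± 0.21 and 0.23 ± 0.28.

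None of the nucleolar chaperones, nor the helicase, passed the test. Of these 4 genes, 3 were above 0 in liver, 3 in kidney, 2 in heart, and 0 in brain and spleen. Ncl, nucleolin, which binds the precursor, differed in brain by −0.02 ± 0.08, in heart by −0.13 ± 0.16, in kidney by 0.08 ± 0.11, in liver by 0.22 ± 0.15 and in spleen by −0.10 ± 0.19 in the authors' deposited tables. Nolc1, a chaperone of box particles, differed by −0.04 ± 0.08, 0.05 ± 0.16, 0.07 ± 0.11, 0.25 ± 0.20 and −0.01 ± 0.15. Ddx21, an RNA helicase that acts on polymerase I and on guide RNAs, differed by −0.01 ± 0.08, −0.20 ± 0.10, 0.13 ± 0.09, 0.37 ± 0.14 and −0.04 ± 0.12 in the authors' deposited tables. Ddx21 in liver had an adjusted p of 0.196 by DESeq2. Npm1, nucleophosmin, lay between −0.12 and 0.15.

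The polymerase I genes stayed within 0.28 of 0 in every organ. Polr1a, the largest subunit, differed in brain by 0.07 ± 0.09, in heart by −0.17 ± 0.16, in kidney by 0.05 ± 0.09, in liver by 0.28 ± 0.13 and in spleen by −0.07 ± 0.12 in the authors' deposited tables. Rrn3, which brings the polymerase to the promoter, differed by 0.10 ± 0.06, −0.15 ± 0.14, 0.05 ± 0.09, −0.01 ± 0.18 and −0.03 ± 0.12. Ubtf, which holds ribosomal DNA open, differed by −0.03 ± 0.08, 0.17 ± 0.14, −0.00 ± 0.08, 0.13 ± 0.12 and 0.07 ± 0.13. Polr1b, another large subunit, lay between −0.13 and −0.02 in all 5 tables.

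Among the 8 genes of the small subunit processome, which folds and cuts the precursor of the small subunit, 5 were above 0 in liver. In kidney 7 were above 0, in brain 5, in heart 3 and in spleen 2. An unadjusted p under 0.05 was reached by 3 of the 8 in liver. Mphosph10, which forms a complex with Imp3 and Imp4 on U3, had the lowest p of any member in liver, 0.45 ± 0.16, a 1.37-fold higher level (95% interval 1.10 to 1.69) with an adjusted p of 0.122 by DESeq2 in the authors' deposited table. Its values in brain, heart, kidney and spleen were 0.00 ± 0.14, −0.03 ± 0.23, 0.15 ± 0.12 and −0.08 ± 0.16. Imp3 and Imp4, its partners, stood at −0.02 ± 0.17 and 0.08 ± 0.14 in liver in the authors' deposited table. Wdr43, which couples transcription to processing, differed by 0.11 ± 0.10, 0.06 ± 0.15, 0.06 ± 0.09, 0.31 ± 0.13 and −0.00 ± 0.14 from brain to spleen. Utp20, a very large scaffold protein, differed by −0.06 ± 0.08, −0.24 ± 0.16, 0.19 ± 0.10, −0.01 ± 0.14 and −0.29 ± 0.12. Utp20 in spleen had an unadjusted p of 0.0171 and an adjusted p of 0.632 by DESeq2. The other members, Nop14, Utp4 and the methyltransferase Emg1, lay between −0.10 and 0.27.

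Large subunit assembly genes held no value at an unadjusted p under 0.05 in any organ. Nop2, a methyltransferase of the large subunit RNA, differed in brain by 0.06 ± 0.09, in heart by 0.07 ± 0.18, in kidney by 0.05 ± 0.09, in liver by 0.20 ± 0.15 and in spleen by −0.03 ± 0.13 in the authors' deposited tables. Nop16 differed by −0.07 ± 0.10, 0.22 ± 0.16, −0.03 ± 0.11, 0.09 ± 0.14 and 0.31 ± 0.22. Wdr12, which acts in a complex with Bop1 and Pes1, differed by −0.08 ± 0.09, −0.17 ± 0.29, −0.03 ± 0.10, 0.20 ± 0.15 and −0.14 ± 0.12. Bop1, Pes1 and Ftsj3, a methyltransferase of the precursor, lay between −0.08 and 0.20.

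In liver, 22 of the 32 genes (68.8%) were above 0, against 50.8% of genes at a mean level of at least 100 normalised counts. Kidney was close to that with 21 (65.6%), and heart had 18, brain 14 and spleen 13. Of all genes at that level, 52.7%, 50.9%, 50.5% and 56.7% were above 0 in those 4 organs. The median log2 fold change of the 32 genes in liver was 0.09. Over all tested genes it was 0.01, and over genes at a mean level of at least 100 it was 0.00, in the authors' deposited table. The 7 at an unadjusted p under 0.05 are 21.9% of the set: Mphosph10, Nop58, Ddx21, Wdr43, Gar1, Polr1a and Nop14, from 1.20-fold to 1.37-fold higher. Genes at that level, which all members reach, had such a p in 12% of cases in either direction and in 6.06% as higher. Of the 7 genes, 6 had no near-identical copy (Ddx21 had 8.43% of its transcript matched), and 3 overlap a gene on the other strand. For Polr1a and Nop14 that gene (Gm26628 and Gm15522) was listed at 0, and for Wdr43 (CT010429.2) no value is given here. No adjusted p in liver was under 0.122 by DESeq2.

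Markers of other cells also differed in liver. Of 8 exocrine pancreas markers, 5 were tested and all 5 were above 0, with a median log2 fold change of 5.74, 3 at an unadjusted p under 0.05 and none called by DESeq2; their summed level in the authors' deposited table was 344040 and 1 of the 8 was listed at 0. Of 8 neutrophil markers, 6 were tested, and S100a8 (0.99 ± 0.24) and S100a9 (0.88 ± 0.23) rose, at a summed level of 1391 for the list. Ptprc, the common leukocyte antigen, rose by 0.62 ± 0.16, with an adjusted p of 0.0105 by DESeq2. The adipocyte genes Cfd (−2.52 ± 0.53) and Cidec (−0.75 ± 0.17) fell. Of the 6 adipocyte markers, 5 were tested and 1 of these was above 0 (Fabp4, 0.02 ± 0.17), with a median of −1.28 and a summed level of 3988. The 19 tested proliferation genes had a median of 0.04 and moved in no common direction: Rrm2, a subunit of ribonucleotide reductase, fell by 0.89 ± 0.23 on the log2 scale in the authors' deposited table, while Mki67 (0.74 ± 0.27) and Ccna2 (0.56 ± 0.25) were above 0 at an unadjusted p under 0.05 and were not called. Their part in the values of the 32 genes was not tested.

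The neutrophil list also differed in heart, where Nhp2 came closest to the threshold. In the authors' deposited table for heart, Cxcr2 (2.27 ± 0.35), S100a9 (2.26 ± 0.37), S100a8 (1.83 ± 0.44) and Csf3r (0.68 ± 0.18) rose among 6 tested of 8, at a summed level of 1848. Of 20 proliferation genes in heart, 18 were above 0 and 8 reached an unadjusted p under 0.05, with a median of 0.41, and 0 were called by DESeq2. Lep, an adipocyte hormone, fell by 4.92 ± 0.85 on the log2 scale, at a mean level of 68.4. Of 6 adipocyte markers tested in heart, 1 was called and 4 reached an unadjusted p under 0.05 by DESeq2. The list had a median of −1.94 and a summed level of 64885. Fabp4, at a mean level of 56281, was the 1 marker above 0 (0.40 ± 0.24). Of 8 erythroid markers in heart, 6 were above 0 (median 0.47, 4 at an unadjusted p under 0.05, 3 of them higher, summed level 671723), and all 6 liver markers were below 0 (median −3.28, 3 at such a p, summed level 3356), with none of either list called by DESeq2. Their part in the value of Nhp2 was not tested. In spleen, where Utp20 had its lowest value, all 8 neutrophil markers were above 0 in the authors' deposited table, 6 of them at an unadjusted p under 0.05 by DESeq2 and none called, with a median of 1.18 and a summed level of 40417. Of 8 erythroid markers in spleen, 7 were above 0, with a median of 0.76, a summed level of 1845780 and 3 at an unadjusted p under 0.05 (Hbb-bt 0.91 ± 0.27, Hba-a1 0.77 ± 0.27, Hbb-bs 0.78 ± 0.28), none of them called. Their part in the value of Utp20 was not tested either. Markers also differed in kidney, where 0 members reached an unadjusted p under 0.05. S100a9 (1.17 ± 0.31) and S100a8 (1.24 ± 0.35) rose there in the authors' deposited table. The liver markers Ttr (−1.14 ± 0.12) and Serpina1a (−1.08 ± 0.16) and the heart marker Ryr2 (−0.82 ± 0.14) fell. Proliferation genes in kidney were above 0 in 16 of 20 cases, 4 at an unadjusted p under 0.05 and 0 called by DESeq2.

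The differences among the 32 genes varied with coding length, lower at greater length in heart and spleen. In brain, kidney and liver the correlation was positive and weaker. Across the 32 genes, the rank correlation (Spearman's rho) between log2 fold change and coding length was −0.64 in heart and −0.56 in spleen, against 0.39 in brain, 0.48 in kidney and 0.29 in liver, computed from the authors' deposited tables. The correlation is across genes measured in the same libraries, which are not independent replicates. With the length of the whole transcript rho was −0.67 in heart and −0.54 in spleen, against 0.42 in brain, 0.30 in kidney and 0.35 in liver. The 10 genes under 1000 coding bases, from Nop10 (192) to Fbl (981), had a median log2 fold change of 0.16 in heart and 0.23 in spleen, with 9 and 7 of 10 above 0. The 14 genes over 2000 coding bases, from Wdr43 (2031) to Utp20 (8367), had medians of −0.07 and −0.03, with 5 and 2 of 14 above 0. In liver the short genes had a median of 0.01 (5 of 10 above 0) and the long ones 0.21 (11 of 14), in kidney −0.00 (4) and 0.07 (11), and in brain −0.05 (2) and 0.01 (8). Of the 7 liver genes at an unadjusted p under 0.05, 5 were over 2000 coding bases. Nhp2 (459 coding bases) and Utp20, the members with the lowest p in heart and spleen, stand near opposite ends of that range.

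In heart and spleen the slope over all genes had the same sign. Over 12371 genes in heart at a mean level of at least 100, rho between log2 fold change and coding length was −0.30, and over 13274 genes in spleen it was −0.40. Genes under 1000 coding bases had a median of 0.07 in heart and 0.14 in spleen in the authors' deposited tables, and genes over 2000 had −0.07 in both. In brain, kidney and liver, rho over all such genes was 0.09, 0.01 and 0.15. In heart, 64.1% of all short genes and 32.6% of all long ones were above 0, and in spleen 74.8% and 33.5%. In liver these shares were 42.0% and 60.2%, in kidney 51.3% and 55.1%, and in brain 46.3% and 55.1%. The part of length in the values of Nhp2, Utp20 and the 7 liver genes was not tested.

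**Figure D3:**
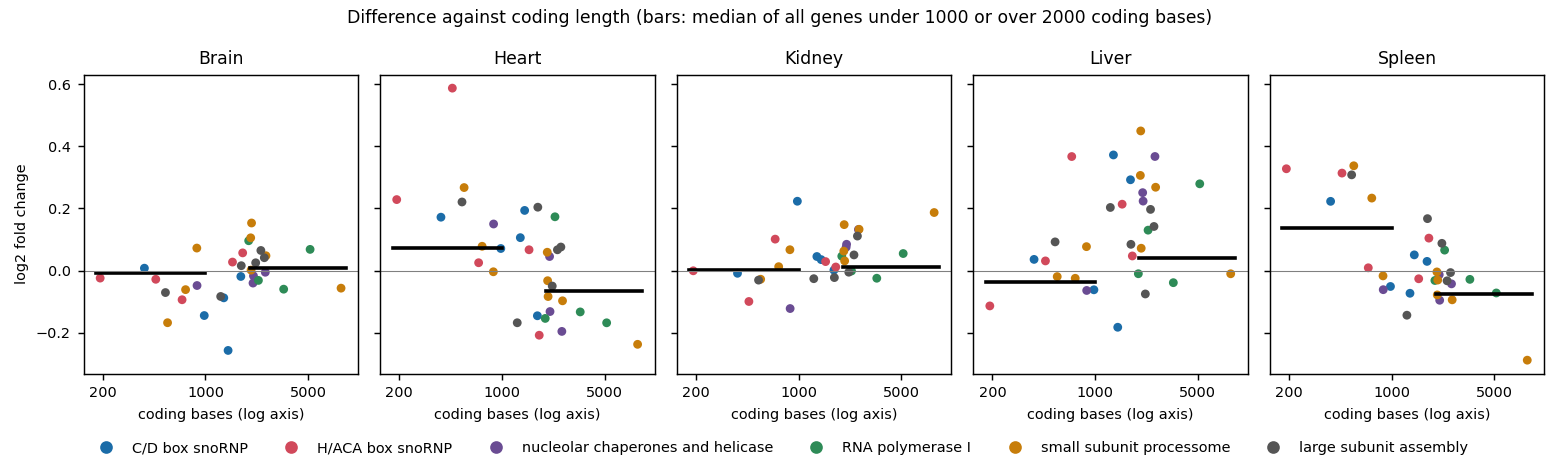
Log2 fold change of each of the 32 genes against its coding length (log axis, bases) by organ, coloured by role; black bars are medians of all genes at a mean level of at least 100 and under 1000 or over 2000 coding bases. In heart and spleen the short genes lie mostly above 0 and the long ones mostly below, and the bars for all genes step the same way.

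Cochran's Q, a test of whether a gene's 5 log2 fold changes differ beyond their standard errors, was used to compare the organs. After Benjamini-Hochberg adjustment over 17391 genes, 0 of 32 members passed, where 1.22% of all genes did. An unadjusted p under 0.05 by Cochran's Q was reached by 3 members (9.38%), close to the share of all genes (8.3%). They were Nhp2, Ddx21 and Utp20, with adjusted p-values of 0.250, 0.365 and 0.505 by Cochran's Q on DESeq2's values. The 5 organs come from the same 6 mice, which the test treats as independent. The smallest spread over organs was that of Imp4, whose highest and lowest log2 fold changes were 0.09 apart in the authors' deposited tables.

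Other genes of the same route gave the same count. Of 139 further genes tested (138 in liver), 0 were called in any organ by DESeq2. An unadjusted p under 0.05 by DESeq2 was reached by 1 (brain), 5 (heart), 2 (kidney), 5 (liver) and 3 (spleen). These were 0.719%, 3.6%, 1.44%, 3.62% and 2.16% of the further genes. Each share was below that of all genes in the organ (2.34%, 5.71%, 3.99%, 6.63% and 4.7%). In liver, 21.9% of the 32 genes had reached such a p. The difference between the 32 and the further genes was not tested. The further genes had median log2 fold changes of −0.01, 0.04, 0.03, 0.05 and 0.04 from brain to spleen in the authors' deposited tables. By list, the lowest p belonged to Eif6, an export factor of the large subunit (heart, 0.42 ± 0.15, adjusted p = 0.245 by DESeq2), Polr1d, a polymerase I subunit (heart, 0.36 ± 0.14), Exosc4 of the exosome (heart, 0.35 ± 0.15), Wdr36 of the processome (heart, −0.31 ± 0.14), Znhit6 of snoRNP assembly (heart, −0.28 ± 0.17) and Tsr3, an rRNA-modifying enzyme (liver, −0.27 ± 0.16). Myc, the transcription factor known to drive ribosome synthesis, rose in kidney by 0.46 ± 0.13, with an adjusted p of 0.0362 by DESeq2 in the authors' deposited table. The 32 genes had a median of 0.03 in that organ, and 0 of them reached an unadjusted p under 0.05. The E-box CACGTG, a sequence that reads the same on both strands and that Myc can bind, lay within 250 bases before the start of Imp4, Nop2 and Rrn3, 3 of 28 members with a RefSeq promoter (GRCm38.p6, 10.7%), against 6.86% of 26994 genes.

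The guide RNAs themselves were counted in the rRNA-depleted libraries. DESeq2 called 0 snoRNAs in any organ, out of 963 tested (brain), 687 (heart), 710 (kidney), 599 (liver) and 733 (spleen), a background of 0% in each; at an unadjusted p under 0.05 the shares of all snoRNAs were 2.6%, 2.47%, 1.41%, 1.34% and 0.546%. Among the named C/D box RNAs, 3 of 106 tested in brain and 2 of 89 in kidney had an unadjusted p under 0.05, and 0 of 89 in each of heart, liver and spleen. Of the named H/ACA box or Cajal body RNAs, 1 of 42 did in brain, and 0 of 41 or 42 in each other organ. Their median standard errors were 0.33 to 0.59 (C/D box) and 0.29 to 0.44 (the latter) in the authors' deposited tables. These are wider than those of the protein genes, so only larger differences could have been seen.

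The 5 copies of U3 (Snord3a and Snord3b1 to Snord3b4), the C/D box RNA that Rrp9 and Mphosph10 work with, differed by −0.29 to 0.38 over the 5 organs, with standard errors of 0.16 to 0.43, in the authors' deposited tables. U8 (Snord118) differed in brain by −0.38 ± 0.37, in heart by 0.48 ± 0.31, in kidney by 0.33 ± 0.37, in liver by −0.58 ± 0.52 and in spleen by −0.02 ± 0.27. U17 (Snora73a) differed by −0.38 ± 0.26, 0.32 ± 0.21, 0.18 ± 0.24, −0.32 ± 0.53 and 0.17 ± 0.29 in the same tables. None of these values had an unadjusted p under 0.05. Near-identical copies of U3 cannot be counted apart with certainty.

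Terc, the telomerase RNA, is an H/ACA box RNA that Dkc1, Nhp2, Nop10 and Gar1 bind. In heart it differed by 1.33 ± 0.44 at a mean level of 96.8 normalised counts, with an unadjusted p of 0.00257 and an adjusted p of 0.135 by DESeq2, in the authors' deposited table. In the other organs it lay between −0.34 and 0.32, with a mean level of only 17.9 and no adjusted p in kidney. Both Nhp2 and Terc had their lowest p in heart, and neither was called. Terc was picked after values were seen, and a link between Terc and Nhp2 was not tested. Rmrp, the RNA of RNase MRP, which cuts the precursor, differed by −0.58 ± 0.19 in brain, with an unadjusted p of 0.00255 and an adjusted p of 1.00 by DESeq2. Snord13 in kidney, at 0.88 ± 0.43, had an unadjusted p of 0.0408. The 11 RNAs gave 3 such values of 55. Terc and Rmrp stand in the lncRNA tables, where DESeq2 called 0.0108% of tested genes in brain, 0.681% in heart and then, in kidney, liver and spleen, 0.41%, 1.02% and 0%.

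**Figure D4:**
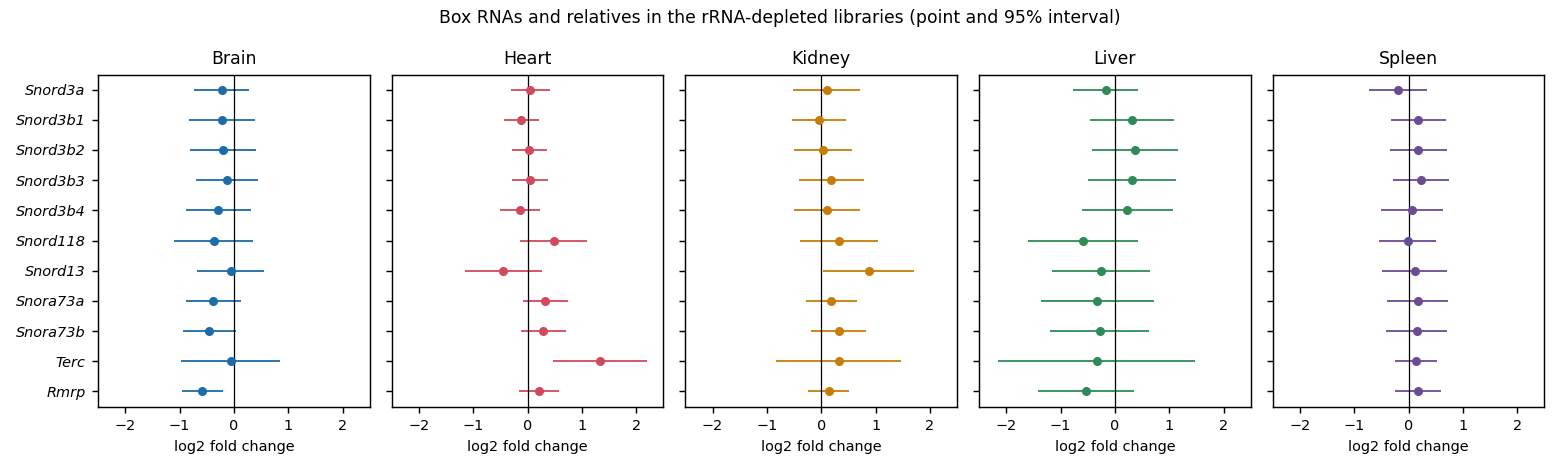
Log2 fold change with 95% interval of U3 copies (Snord3), U8 (Snord118), Snord13, U17 (Snora73), Terc and Rmrp in each organ, rRNA-depleted libraries. Intervals that exclude 0 are those of Terc in heart, Snord13 in kidney and Rmrp in brain.

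The snoRNAs hosted in the 5 protein genes were sparsely counted. The tables name 15 of the 16, at mean levels of 0.929 to 180 normalised counts, with standard errors of 0.30 to 3.14 and no adjusted p under 0.982 by DESeq2. In liver, where Nop58 stood at 0.37 ± 0.14, its snoRNA Snord11 stood at −0.86 ± 1.16, Snord70 at −0.98 ± 0.87, Gm26287 at 0.47 ± 1.43 and Gm26293 at −1.80 ± 0.88 in the authors' deposited tables. Gm26293 was the only hosted snoRNA at an unadjusted p under 0.05 (liver, 0.0414 by DESeq2). Around Wdr43, at 0.31 ± 0.13 in liver, Snord92 stood at −1.44 ± 1.81 and Snord53 at −0.56 ± 0.90. For Ncl in liver, at 0.22 ± 0.15, Snord82 stood at 0.80 ± 0.73 and Snora75 at 0.32 ± 0.58. Intervals this wide do not allow a host and its snoRNA to be compared.

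Levels of the 32 genes differed between organs by 2.45 to 7.59 times. Per kilobase of coding sequence and per 1000000 of the table's summed level, 28 of the 32 genes were highest in spleen, 2 in brain (Rrn3 and Wdr12) and 2 in kidney (Naf1 and Utp20), computed from the authors' deposited tables over both genotypes. The lowest organ was liver for 15, heart for 14 and brain for 3 (Ddx21, Emg1 and Imp3). Median levels of the 32 genes on that scale were 36.5 (spleen), 16.2 (brain), 13.3 (kidney), 9.58 (heart) and 8.83 (liver). The organs' tables were normalised separately and no test was made, and the part of the pancreas transcripts in the spleen levels was not tested.

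Per kilobase of coding sequence, Ncl and Nop10 had the highest levels in every organ but brain, where Snu13 (120) stood between them. The order of genes depends on that divisor. Coding bases are a small part of the transcript in Nop10 (192 of 1109) and Snu13 (384 of 2077), which raises both on this scale. Levels per kilobase of whole transcript were not ranked, and their order can differ. Ncl stood, per kilobase of coding sequence, at 251 (spleen), 132 (brain), 114 (kidney), 68.9 (liver) and 62.8 (heart), from the authors' deposited tables. Nop10 stood at 244, 104, 179, 133 and 99.5 in the same order on the same scale. Npm1 differed most between organs, at 101 in spleen against 13.4 in heart, a ratio of 7.59. Fbl, at 10.3 in spleen and 1.43 in heart, had the lowest level of the 32 on that scale in brain, heart, kidney and liver. It is also the gene with the largest share of its transcript in near-identical copies. Nop10 had the smallest ratio between its highest and lowest organ, 2.45.

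**Figure D5:**
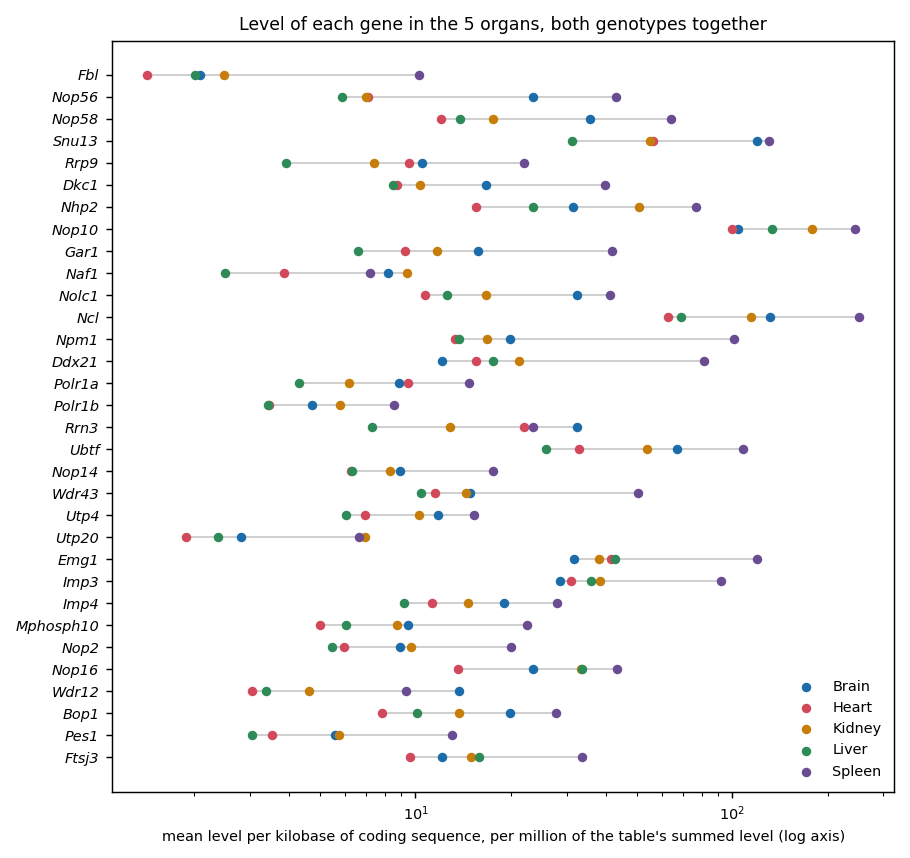
Mean level of each gene in the 5 organs (points), per kilobase of coding sequence and per 1000000 of the table's summed level (log axis), both genotypes together; grey lines join the lowest and highest organ. The spleen point lies furthest right for 28 of the 32 genes; the share of all genes highest in spleen is not given here.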

How the data were processed

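Tissue was frozen and pulverised and RNA extracted with phenol; 30 stranded poly-A and 30 stranded total RNA libraries were made, per the labels' protocols. The submitters' processing notes name DESeq2, featureCounts, Subread 2.0.3 and the build GRCm39; the sources used here do not give the aligner, the annotation or the use of strand. The authors deposited, per organ and kind of RNA, a table of DESeq2 results with no value per library: mean signal (normalised counts over the 6 libraries), log2 fold change with its standard error in log2 units, the test score (Wald statistic), and p-value and adjusted p-value, per the file headers. Depth per library is unknown, and the number of mice limits the precision.

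No count model was fitted. From the deposited values, 95% intervals (log2 fold change ± normal quantile times standard error), the change needed to match the smallest called Wald statistic, Cochran's Q over organs (genes at a mean level of at least 10) and Benjamini-Hochberg adjustments were computed with Python 3.11.15, pandas 2.3.3 and scipy 1.17.1; Cochran's Q was tested on simulated data. Lengths, hosts and overlaps came from GENCODE M21 (APPRIS principal transcripts), near-identical copies from blastn 2.17.0 and promoters from RefSeq, all of another build than the authors' and matched by symbol. Of 263 listed genes present in the poly-A tables, all matched directly; Polr1g did not match, and Pno1, Exosc6, Ms4a1 and Cela2a are listed at 0 in every organ. 1 entry with an empty name per table was left out (at most 0.000198% of the summed level).

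The members and gene lists were chosen with earlier results of these data known. The rule for named genes gave full values to the 3 members of each role with the smallest p. From each other list it named the called genes or the gene with the smallest p. Not every marker list is described in every organ, and none was tested against the values of the members. The background of genes at a mean level of at least 100, the length comparison, its limits of 1000 and 2000 coding bases, and the RNAs U3, U8, U17, Snord13, Terc and Rmrp, and the hosted snoRNAs that are named were picked after values were seen. Alternatives were other adjustments of p, other thresholds, level minimums and centring. Libraries of 1 genotype and organ come from separate mice.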

Additional observations from a re-analysis of the deposited data

How the results depend on the processing

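The count of 0 called members held in brain and kidney under every alternative run: Benjamini-Hochberg adjustment over every gene with a p-value, over genes at a mean level of at least 10, or over the 5 organs together, an adjusted p under 0.1, an unadjusted p under 0.05, and fold changes centred on the median gene. It moved in heart to 1 (Nhp2) at an adjusted p under 0.1, and at an unadjusted p under 0.05 to 1 in heart, 7 in liver and 1 in spleen, by construction of the looser thresholds. Level minimums of 100 or none left the set medians as they were because every member has a mean level above 100, and raised standard errors can only lower Cochran's Q, so these alternatives say nothing about stability. The 9 members at an unadjusted p under 0.05 were each tried under 4 adjustments or centrings, and all 36 adjusted p-values stayed above 0.05; the lowest was 0.0696, for Nhp2 in heart, whose adjusted p ranged up to 0.115. Centring changed the sign of 1 member in brain, 1 in kidney and 1 in spleen, all close to 0. No paired analysis was possible because the deposited tables hold no value per library, and leaving out single mice was not possible for the same reason. The standard errors and the smallest called Wald statistic set the size a difference had to reach to be called, 1.19-fold to 2.36-fold over single genes; depth per library is unknown.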
